A study of Homo sapiens with 38 samples.

Results

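The response of HT-1080 cells to tunicamycin (TM) was compared with and without mitochondrial respiration on 6 of the 38 arrays of the study. HT-1080 is a human fibrosarcoma line, and HT-1080 rho0 is a derivative of it that lacks mitochondrial DNA (mtDNA) and so has no working respiratory chain. The arrays were chosen by their titles, each TM array together with the control array that its description names. Parental HT-1080 cells, with mtDNA, received TM alone, TM with 100 nM rotenone (Rot), an inhibitor of respiratory complex I, or TM with 10 ng/ml antimycin A (AA), an inhibitor of complex III. Each exposure lasted 18 h, and all 3 arrays were set against untreated parental control 6. HT-1080 rho0 cells received TM for the same time without an inhibitor and were set against untreated rho0 control 2. Every treated group had 1 array from 1 culture. The dose of TM and whether the rho0 line is 1 clone are not given in the sources used here, and no array used here had an inhibitor without a stress.

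Tunicamycin blocks the first step of N-linked glycosylation, the addition of a sugar to a lipid carrier in the membrane of the endoplasmic reticulum (ER) by the enzyme DPAGT1. Unglycosylated proteins misfold in the ER, and the sensors ATF6, IRE1 (ERN1) and PERK (EIF2AK3) then start the unfolded protein response. ATF6 and the spliced form of XBP1 raise chaperones and degradation factors, while PERK favours translation of ATF4, which raises amino acid enzymes, transporters and the transcription factor DDIT3 (CHOP). The stress needs no shortage of glucose, so respiration can be removed while the cells still have sugar for glycolysis.

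The 4 TM arrays were treated as replicates of TM stress, which places differences between respiratory states in the error. A change is the difference of log2 scaled signals from the own control array, and a gene was called at a Benjamini-Hochberg adjusted p under 0.05 in limma over 10499 genes. Of these, 151 were higher with TM (1.44% of genes tested) and 38 were lower (0.362%), and each of the 189 had the same sign on all 4 arrays. The parental arrays share control 6, so the rho0 pair carried 40% of the weight in this estimate and the 3 parental arrays 60%. The median change over all genes was -0.01. The 4 arrays were also set against all controls of both lines, which include the 2 controls of the fit, for which the called genes were chosen to differ. On all 4 arrays 149 of the 151 lay above every control of their own line, 6 parental and 2 rho0, as did 12.1% of all genes, the exceptions being IL13RA2 and STT3A. All 38 lower genes lay below every such control, as did 10.5% of all genes.

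Promoters of several genes that rose hold the elements through which the response is known to act, and the sequences are shown for that reason. RefSeq promoters (GRCh38.p14, 250 bases before to 50 after each start) were matched by symbol for 125 of the 151 genes. The ER stress response element (ERSE, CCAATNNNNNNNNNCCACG on either strand) stood in 10 of the 125 (8%), and in 0.173% of the 8693 promoters of all genes tested. ERSE II (ATTGG and CCACG with any base between them) stood in 4 (3.2%, against 0.161%). The core TGACGTGG of the element bound by XBP1 and ATF6 stood in 8 (6.4%, against 1.16%), 1 of them overlapping an ERSE or ERSE II. The composite element of ATF4 (TGATGNAAT) stood in 3 (2.4%, against 0.84%), and in 4 of the 180 matched promoters of genes that fell when an inhibitor was added to TM (2.22%). None of the 4 motifs was present in the 32 matched promoters of genes of the shared fall. Below, capitals mark the fixed letters of the ERSE in HSPA5, CRELD2, PDIA6, XBP1 and HSP90B1 (which has 2), of the ERSE II in HERPUD1, SDF2L1 and HYOU1 (which has 2), and of the ATF4 element in GARS1 and KLHDC7B, each read 5′ to 3′ along the strand of the gene.
HSPA5, chr9:125241383-125241417, minus strand: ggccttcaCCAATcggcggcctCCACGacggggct
CRELD2, chr22:49918546-49918580, plus strand: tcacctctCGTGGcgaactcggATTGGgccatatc
PDIA6, chr2:10812845-10812879, minus strand: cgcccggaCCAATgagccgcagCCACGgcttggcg
XBP1, chr22:28800595-28800629, minus strand: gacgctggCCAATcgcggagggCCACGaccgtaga
HSP90B1, chr12:103930208-103930347, plus strand: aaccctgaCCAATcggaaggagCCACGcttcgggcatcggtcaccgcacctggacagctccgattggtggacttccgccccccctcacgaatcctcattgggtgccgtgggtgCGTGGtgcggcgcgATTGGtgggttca
HERPUD1, chr16:56932017-56932043, plus strand: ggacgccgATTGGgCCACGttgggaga
SDF2L1, chr22:21642106-21642132, plus strand: ctcggaagCGTGGaCCAATcaaaaccc
HYOU1, chr11:119057266-119057398, minus strand: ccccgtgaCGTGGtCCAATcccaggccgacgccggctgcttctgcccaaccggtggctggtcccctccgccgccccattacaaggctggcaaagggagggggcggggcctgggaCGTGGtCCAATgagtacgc
GARS1, chr7:30594836-30594860, plus strand: acgcggcgATTtCATCAtgctccga
KLHDC7B, chr22:50545739-50545763, plus strand: ttctggtgATTtCATCAgggccaca
The HSPA5 match begins 66 bases before the start and that of CRELD2 80 bases before it. A match is a description of the letters in this window and not of binding.

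The arrays matched their labels. Vimentin (VIM) read 8749 to 10021 and the sum of 11 mesenchymal markers 14542 to 18159 on the 6 arrays, while the epithelial markers EPCAM and CDH1 stayed at or below 12.5 and only KRT18 and KRT8 of 11 were clearly present (summed 2278 to 3193). LUM, THY1, TAGLN and S100A4 of the mesenchymal list were near background, and FN1 was 72.5 and 63.1 in the rho0 pair. The 6 measured mtDNA-encoded transcripts summed to 29260 to 38723 on the parental arrays and to 12.3 and 19.7 in the rho0 pair. Deposited 2% trimmed means were 113 to 131, and 3′ to 5′ signal ratios were 0.913 to 0.949 for GAPDH and 1.23 to 1.49 for ACTB.

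Of 21 ER chaperones measured 12 rose, none fell, and the median change was 0.89. The log2 changes of 18 were above 0 on all 4 arrays, the exceptions being FKBP7, TOR1A and TOR1B. HSPA5 (BiP), the main Hsp70 chaperone of the ER lumen, had a signal of 3953.6 in control 6. It read 9991 with TM, 11463 with TM and Rot and 11724 with TM and AA, and rose from 3688 to 10097 in rho0 cells. The 4 TM values do not overlap the 8 controls, whose highest is 4380.2, and the shared rise was 2.77-fold (log2 1.47, SE 0.08, adjusted p = 0.000337). A second probe set of HSPA5 gave a mean change of 3.78. CRELD2, an ER protein with isomerase activity, went from 424 in control 6 to 3264, 3250.0 and 3174 on the parental arrays and from 387 to 4067 in rho0 cells. Its rise of 3.10 (8.56-fold, SE 0.13, adjusted p = 0.000192) had the smallest adjusted p of all genes. HSP90B1 (GRP94), the ER Hsp90, rose by 2.27 (SE 0.13), HYOU1, an exchange factor and Hsp70 relative, by 2.33 (SE 0.11), and the secreted factor MANF by 2.01 (SE 0.15). SDF2L1 rose by 2.55, NUCB2 by 2.66 and the lectin chaperone CANX by 0.82. CALR, the soluble partner of CANX, had a change of 0.62 that did not pass (adjusted p = 0.069).

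**Figure D1:**
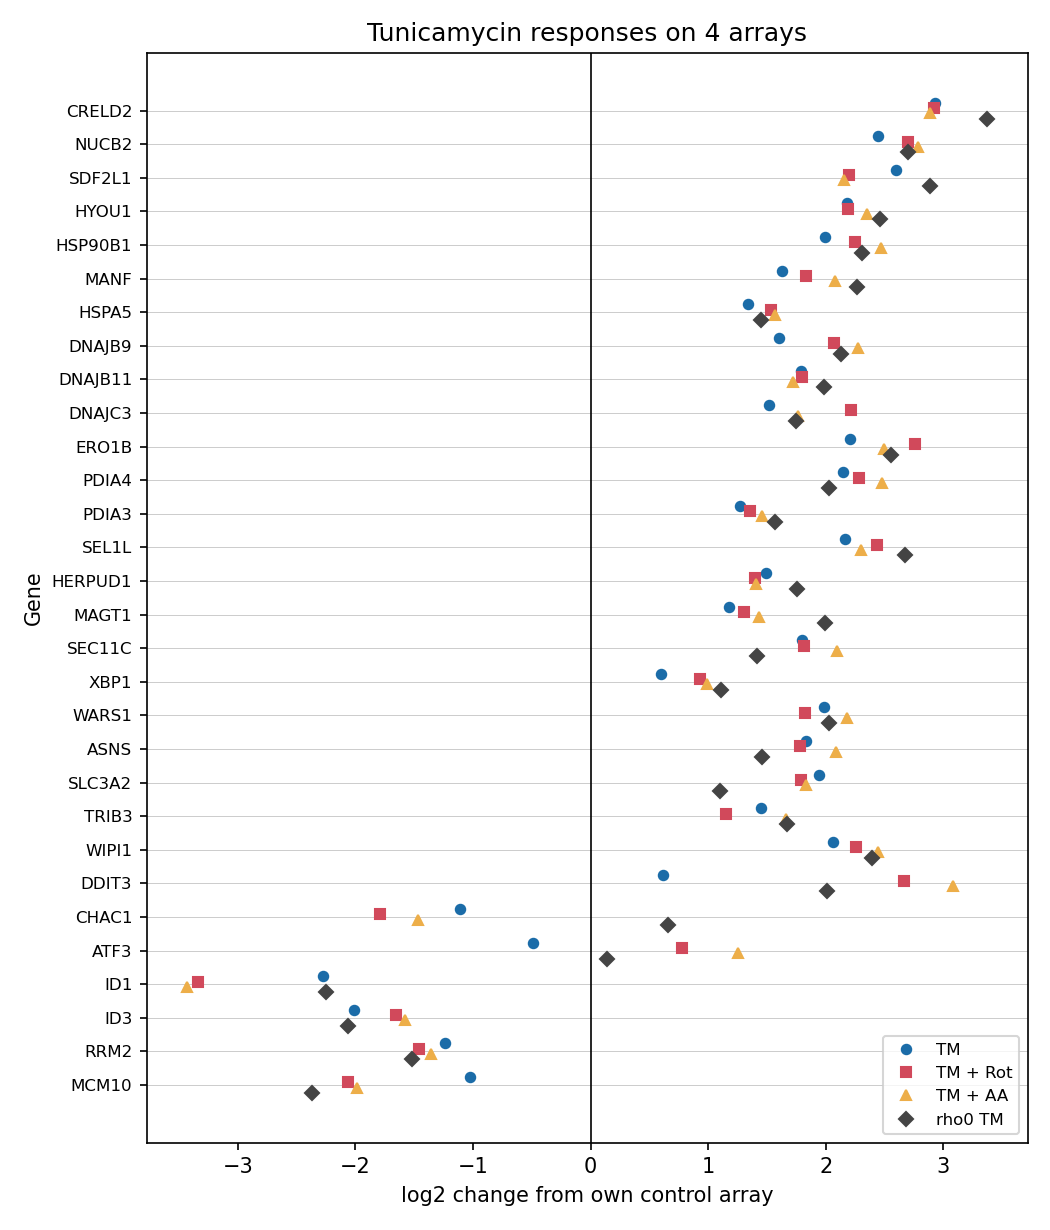
Log2 change from the own control array (x axis) of 30 genes (y axis) on the 4 tunicamycin arrays, 1 marker per array. The markers of ER genes from CRELD2 to XBP1 all lie above 0 and close together, ID1, ID3, RRM2 and MCM10 all lie below 0, and those of DDIT3, CHAC1 and ATF3 lie apart.

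J-domain co-chaperones, which hand clients to HSPA5, gave the highest list median, 1.50, with 5 of 6 members up. DNAJB9 (ERdj4) read 223 in control 6 and 689, 956 and 1103 on the parental arrays, and 203 and 911 in rho0 cells. DNAJB11 rose by 1.86 (SE 0.10), DNAJC3 (p58IPK), which restrains PERK, by 1.80 (SE 0.20), DNAJC10 by 1.20 and SEC63, part of the translocon, by 1.16. The sixth, DNAJC1, had a change of 0.82 (adjusted p = 0.0745). Among disulphide isomerases and oxidases 6 of 15 rose and none fell, with a median of 0.47. PDIA4 went from 489 to 2192, 2398 and 2759.9 in parental cells and from 543 to 2225 in rho0 cells, a rise of 2.19 (SE 0.14). The oxidase ERO1B rose by 2.51, while the change of its paralogue ERO1A was 0.46 (adjusted p = 0.144).

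In ER-associated degradation, which returns misfolded proteins to the cytosol, 9 of 25 members rose and none fell (median 0.45). SEL1L, the scaffold of the HRD1 ubiquitin ligase, rose from 307 to 1397, 1689.8 and 1530.1 in parental cells and from 235 to 1526 in rho0 cells. This was the largest change on the list, 2.45 (SE 0.16, adjusted p = 0.000521). HERPUD1 rose by 1.56 and the lectin OS9 by 1.16, and EDEM1, which trims mannose, had a change of 0.73 that did not pass (adjusted p = 0.157). Of 44 genes for ER entry and vesicle traffic 12 rose and none fell (median 0.52). The signal peptidase subunit SEC11C rose by 1.71 and the translocon protein TRAM1 by 1.23.

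In the N-glycosylation pathway, which TM blocks, 7 of 35 members rose and none fell, with a median of 0.42. They include STT3A and STT3B, the catalytic subunits of oligosaccharyltransferase, at 1.11 and 1.01, and the accessory subunits MAGT1 at 1.58, OSTC at 1.02, RPN1 at 0.84 and DDOST at 0.61. The seventh is NANS, of sialic acid synthesis, at 1.00. DPAGT1, the target of TM, went from 619.6 to 949, 843 and 933 on the parental arrays and from 653 to 1076 in rho0 cells. All 4 values lie above the own control, but the change of 0.61 did not pass (adjusted p = 0.077).

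Of 13 sensors and their factors, 1 passed, XBP1, which is both target and effector. It went from 364 to 553, 698 and 729.5 in parental cells and from 453 to 984 in rho0 cells, a rise of 0.95 (SE 0.18, adjusted p = 0.0455). The adjusted p was 0.0622 with the deposited scaling. XBP1 was also not called over the parental arrays alone (change 0.84) or without control 6. In the latter setting the change of 1.11 is that of the rho0 pair alone. The sensors ERN1, ATF6 and EIF2AK3 had changes of 0.87, 0.84 and 0.58, with adjusted p of 0.087, 0.1 and 0.163.

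The lists of the ATF4 pathway had calls in part. In amino acid synthesis 6 of 13 members rose and none fell, with a median of 1.01. ASNS, asparagine synthetase, went from 1277 to 4556.5, 4399.9 and 5451 in parental cells and from 1516 to 4170.2 in rho0 cells, a rise of 1.72 (SE 0.14, adjusted p = 0.00128). CTH, PCK2, PHGDH and PYCR1 rose by 1.16, 1.15, 1.02 and 1.01. Of 12 amino acid transporters 3 rose, SLC3A2 (1.55), SLC1A4 (1.31) and the cystine carrier SLC7A11 (1.20), and of 17 aminoacyl-tRNA synthetases 5 rose, led by WARS1 (2.01) and SARS1 (1.14). Of 18 feedback genes TRIB3 (1.52, SE 0.16) and INHBE (1.34, SE 0.25) rose. Of the 151 genes, 52 stood on the ER lists and 16 on the lists of the ATF4 pathway. Over all 10499 genes tested these numbers were 158 and 73.

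The transcription factors above these targets did not pass: of 13 stress factors none was called. ATF4 itself, controlled mainly at translation, had a change of 0.39 (adjusted p = 0.0739). DDIT3 read 188 in control 6, 292 with TM, 1223 with TM and Rot, 1638 with TM and AA, and 106 and 446 in the rho0 pair. Both arrays with an inhibitor lie above the one with TM alone, and the spread of 0.62 to 3.08 among the 4 changes left the mean of 2.08 uncalled (adjusted p = 0.149). Control 6 bears on this group. Its DDIT3 signal was the highest of 6 parental controls, whose lowest was 36.5 and median 60.4, and TRIB3, INHBE, ASNS and CHAC1 were also highest there. So were the ER genes CRELD2 (424, median of the 6 controls 363), HERPUD1 (1157, 785), SDF2L1 (308, 250.2), DNAJB9 (223, 179) and XBP1 (364, 261). The median gap of control 6 to the mean of the other 5 was 0.62 over the feedback list, 0.38 over amino acid synthesis and 0.10 over ER chaperones, against 0.02 over all genes, and its part in the changes of these lists was not tested beyond that. CHAC1, which degrades glutathione, read 327 in control 6, 148, 90.0 and 115 on the parental TM arrays, and its median over the 6 controls was 29.5.

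**Figure D2:**
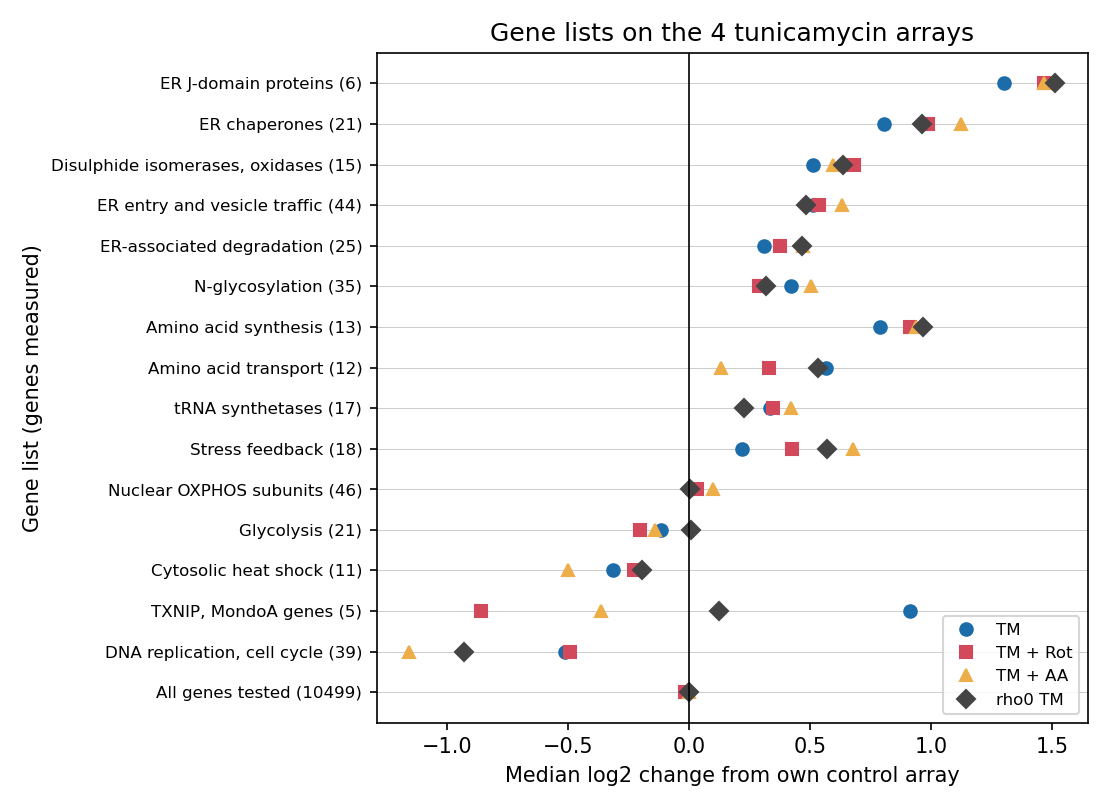
Median log2 change from the own control (x axis) over each gene list (y axis, genes measured in brackets) on the 4 tunicamycin arrays, 1 marker per array. The 4 medians lie close together for the ER lists and for amino acid synthesis, at 0.79 to 0.97 in the latter, and apart for the TXNIP and MondoA genes and for DNA replication.

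By the probe set that stood for each gene, the largest shared rise was not on any list. SPX, which encodes the peptide spexin, read 5.4 in control 6 and 80.3, 178.5 and 270.0 on the parental arrays, and 24.1 and 296 in the rho0 pair, a rise of 3.64 (SE 0.45, adjusted p = 0.00847). Both its controls lie near background, which makes the size uncertain. Another probe set of SPX gave a mean change of 1.67. OSCAR, an immunoglobulin-like receptor, rose by 3.22 (SE 0.29), the complement receptor C5AR1 by 2.46 and KLHDC7B by 2.82. MYCT1 rose by 2.34, with 3.33 on the array with Rot and 1.35 in rho0 cells. Other probe sets gave mean changes of 1.56 for KLHDC7B and 0.60 for MYCT1. Of 16 autophagy and lysosome genes WIPI1, a phosphoinositide-binding autophagy protein (161 to 693, 794 and 902 in parental cells, 207 to 1113 in rho0 cells), and MAP1LC3B rose, by 2.31 and 1.60.

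Genes for replication and for helix-loop-helix inhibitors were among those lower in all 4 states. ID1, an inhibitor of helix-loop-helix factors and a BMP target, fell most, by 2.71 on the log2 scale (SE 0.35, adjusted p = 0.0108). Its signal went from 1846 to 377, 177 and 166 in parental cells and from 4863 to 1018 in rho0 cells, and its relative ID3 fell by 1.87. RRM2, the small subunit of ribonucleotide reductase, went from 3552 to 1505, 1286 and 1384 and from 3680.1 to 1281, and fell by 1.42 on the log2 scale (SE 0.11, adjusted p = 0.00136). The replication factor MCM10 fell by 1.96, the cell cycle factor MYBL2 by 1.92, the repair nuclease EXO1 by 1.75 and the checkpoint mediator CLSPN by 1.70. CLSPN was not called with the mean of its probe sets (adjusted p = 0.182) or over the parental arrays alone (adjusted p = 0.225). Of 39 replication and cell cycle genes 3 passed, all lower (RRM2, TYMS and GINS1), and 29 were lower on all 4 arrays, with a list median of -0.86. Because these are bulk samples, fewer cells of a kind and less RNA per cell cannot be told apart. In the cytosol the heat shock proteins HSPH1 and HSP90AA1 fell by 0.80 and 0.35, the only 2 of 11 to pass, and the mitochondrial chaperonin HSPE1 fell by 0.82. None of 46 nuclear subunits of the respiratory chain and none of 21 glycolysis genes passed, with medians of 0.01 and -0.11.

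Whether cells without mtDNA showed the parental response was read on arrays that share nothing. A fit on the 3 parental arrays and control 6 alone called 35 genes higher and 2 lower. In the rho0 pair, which had no part in that fit, all 35 were higher, 31 of them by at least 1, with a median of 1.75. Over all genes 50.1% were higher in the rho0 pair, 2.33% by at least 1, and the median was 0.0011. Both lower genes were also lower there. Across the 10499 genes, which are not independent, the change with TM alone and that in rho0 cells correlated at r = 0.54. The test of the difference between them called none (0% of genes tested, smallest adjusted p 0.319, 191 genes at an unadjusted p under 0.05). With 1 array in each group its median SE was 0.43, so a missed call does not show that the lines responded alike.

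**Figure D3:**
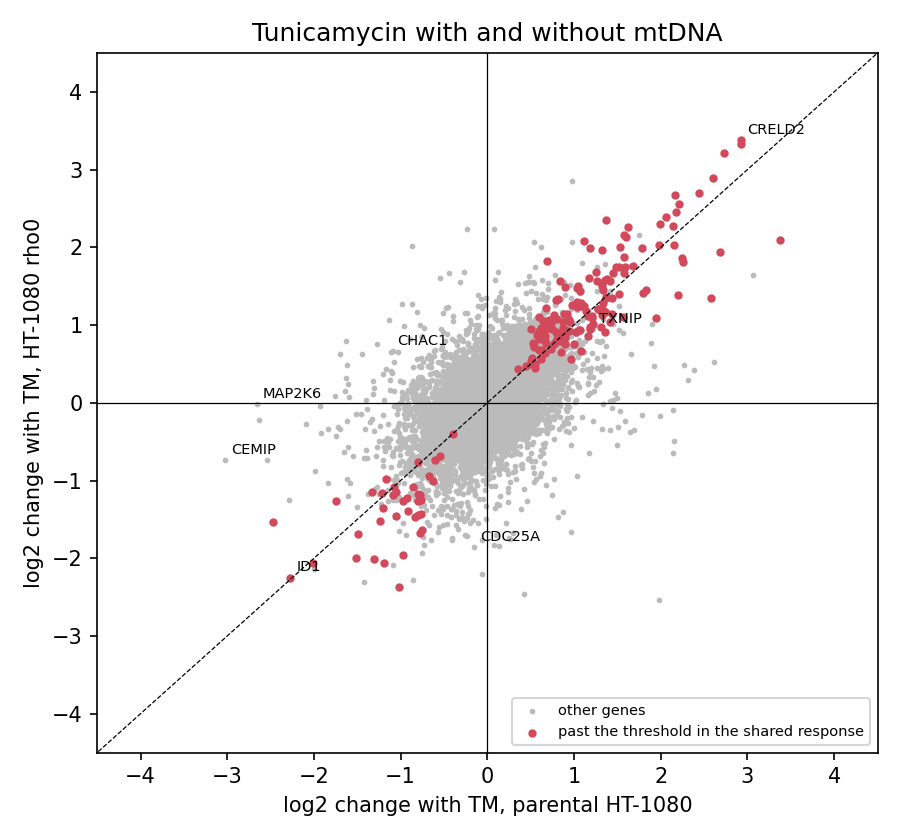
Log2 change with tunicamycin in rho0 cells (y axis) against that in parental cells without an inhibitor (x axis), 1 point per gene, with the 189 genes of the shared response in red and the line of equal change dashed. The red points were chosen for the same sign on both axes, and CEMIP, MAP2K6, CHAC1 and CDC25A lie off the line.

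Single genes broke the pattern on the rho0 array, and are given as values. The rule was a change of at least 1 with 1 sign on 3 arrays and under 0.25 in that direction on the other. Of 10499 genes tested, 16 were higher and 7 lower in the parental states but not in rho0 cells. With another array as the one that differed, the numbers were 2 and 7 for TM alone, 0 and 0 for TM and Rot, and 0 and 1 for TM and AA. The 3 parental changes share control 6, so a high or low reading there moves all 3 together. Its part in these counts was not tested. MAP2K6, a kinase upstream of p38, went from 168 to 21.6, 39.0 and 38.8 in parental cells and read 18.1 and 17.9 in the rho0 pair, where the control was already low. ND6, the mitochondrial subunit encoded on the light strand of mtDNA, went from 847 to 273, 184 and 181, while the rho0 signals of 1.4 and 4.3 are background, since its gene is absent there. The heavy-strand transcripts measured, ND2, ND4, COX1, COX3 and ATP6, were not lower on all 3 parental TM arrays. ND2 read 8349 in control 6 and 7667, 8169 and 8959 with TM. COX1 read 9420 in control 6, 6724 with TM alone, and 10480 and 10620 with Rot and AA. CHAC1 broke the rule with changes of -1.11, -1.79 and -1.46 against 0.66 in rho0 cells, and its parental changes rest on the high control 6. TRMT10B, NECAB2 and MPV17L, higher in the 3 parental states, have control 6 signals of 1.4, 8.3 and 7.8, near background.

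The effect of adding Rot or AA to TM was tested next, with 1 array of TM alone, which was assumed to vary like the replicated groups. The mean of the 2 inhibitor arrays less TM alone called 102 genes higher (0.972%) and 207 lower (1.97%) in a fit over the 29 HT-1080 arrays. With the deposited scaling these numbers were 47 and 279. Of the 151 genes of the shared rise 1, VEPH1, was called higher with the inhibitors and none lower, and their median inhibitor difference was 0.15. Of the 38 genes of the shared fall 2, MCM10 and RFC3, were called lower and none higher. The shared response was chosen for agreement among these arrays, so these counts describe it and do not test it. By number, changes of at least 1 were more frequent with an inhibitor: 196 genes higher and 141 lower with TM alone, 441 and 565 with TM and Rot, 614 and 846 with TM and AA, and 245 and 221 in rho0 cells. Leaving out the AA array brought the calls from 309 to 107, and leaving out the Rot array to 410.

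Several of the largest falls were in genes that stayed near control 6 with TM alone. OGFRL1 read 586 in control 6 and 771 with TM, but 92.3 with TM and Rot and 35.9 with TM and AA, and 638 and 800.0 in the rho0 pair. It fell by 3.60 on the log2 scale (SE 0.38, adjusted p = 0.00015), and both inhibitor arrays lie apart from the 4 others. TRIM25, a ubiquitin ligase of the RIG-I pathway, read 1264 and 1766, then 198 and 185.0, and 862 and 1218 in rho0 cells, and fell by 3.17 (SE 0.29, adjusted p = 2.24e-05). The zinc finger antiviral protein ZC3HAV1 fell by 3.22 and the ubiquitin ligase scaffold CUL3 by 2.59. Other probe sets gave smaller differences, -0.52 for TRIM25, -1.19 and -0.55 for OGFRL1, -2.56 and -0.15 for ZC3HAV1 and -1.24 for CUL3. MAT2A, which makes S-adenosylmethionine, went from 1199 and 1007 to 242 and 182 and fell by 2.23, against 1229 and 881 in rho0 cells. Both inhibitor arrays lay below all 8 controls and both TM arrays without inhibitor for 165 of the 207, and for 13.1% of all genes.

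**Figure D4:**
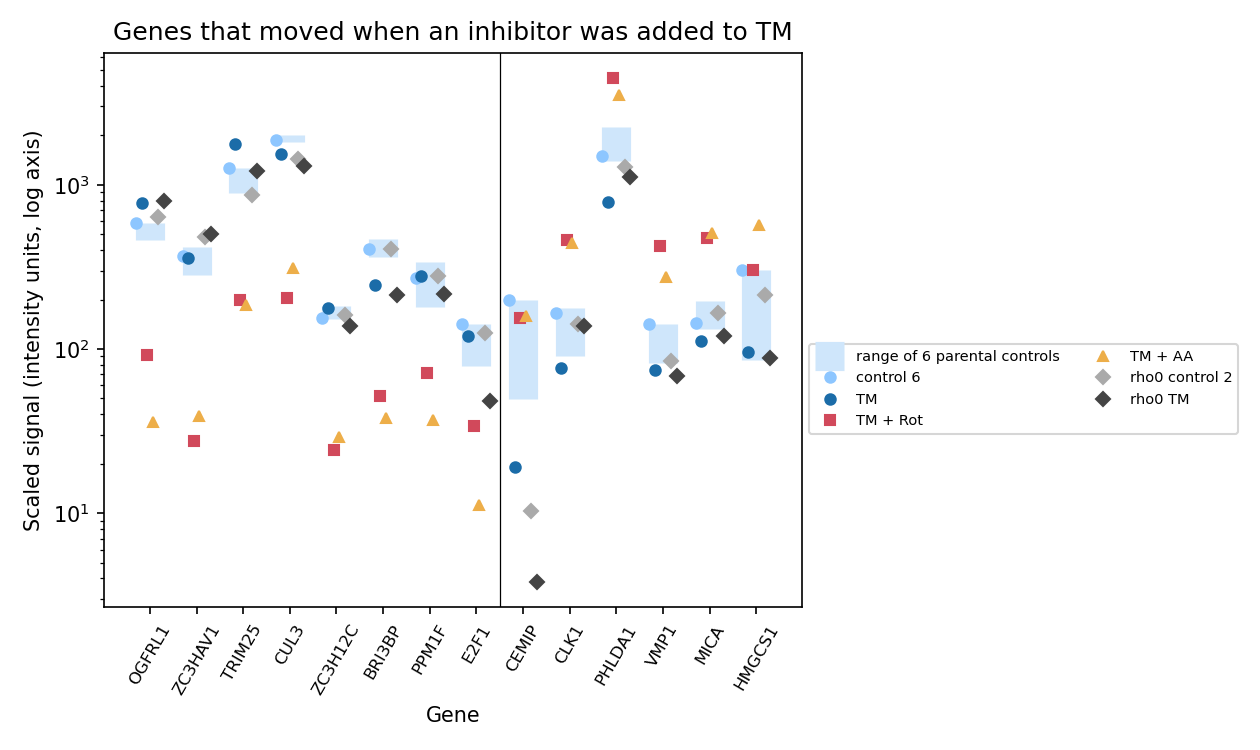
Scaled signal (y axis, log scale) of 14 genes on the 6 arrays, with the range of the 6 parental controls as a bar. Left of the line, TM with Rot and TM with AA lie below the 4 other arrays, except that rho0 TM is also low for E2F1. Right of it they lie above TM alone for every gene.

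The list of replication and cell cycle genes had the most calls by number: 10 of 39 fell with an inhibitor and none rose. The called genes are of replication and the G1/S switch. Mitotic members did not pass, among them TTK (0.50), CDK1 (0.45), AURKA (0.11) and PLK1 (-0.39). These differences average Rot and AA, which lay on opposite sides of TM alone for AURKA and PLK1. AURKA had changes of -0.85 with TM, -0.25 with TM and Rot and -1.24 with TM and AA, and PLK1 of -0.67, -0.355 and -1.76. Both inhibitor arrays lay above TM alone for TTK (-0.71, then 0.09 and -0.52) and CDK1 (-0.60, then 0.14 and -0.45). The list median was -0.51 with TM alone, -0.49 with TM and Rot and -1.15 with TM and AA. UHRF1, which keeps DNA methylation through replication, read 1194 in control 6 and 800.4 with TM, then 253 and 137, and fell by 2.07 (SE 0.25, adjusted p = 0.000332). E2F1, the transcription factor of the G1/S switch, fell by 2.27, with -0.69 on its other probe set. MCM2, MCM3 and MCM6 of the replicative helicase fell by 1.18, 1.44 and 1.27. The rho0 array was also low for some of these genes. By the same rule as above, 7 genes were lower on those 3 arrays but not with TM alone, namely MCM2, CDC25A, E2F1, FEN1, CDT1, SOCS3 and ZNF703. MCM2 read 2722 in control 6 and 2334 with TM, then 1032 and 1027, and 1673 and 660.3 in the rho0 pair. CDC25A, a phosphatase that opens the G1/S switch, had changes of -0.15 with TM, -2.34 and -2.90 with an inhibitor and -1.86 in rho0 cells.

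Of 5 genes on the list of TXNIP and MondoA, a pathway of glucose sensing, 3 fell with an inhibitor and none rose. TXNIP, which inhibits glucose uptake and thioredoxin, read 79.0 in control 6, 192 with TM, 40.9 with TM and Rot and 60.1 with TM and AA, and 23.2 and 50.2 in the rho0 pair. With the inhibitors it fell by 1.83 (SE 0.40, adjusted p = 0.0232) from TM alone. MLXIP (MondoA), the factor that drives TXNIP, fell by 1.99 and KLF10 by 1.87. The arrestin-like ARRDC3 and ARRDC4 had differences of 1.14 and -0.80 that did not pass (adjusted p = 0.332 and 0.522). Other probe sets of MLXIP gave -1.89 and 1.52, so its direction depends on the probe set.

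Among genes that rose with an inhibitor, PHLDA1, a pleckstrin homology protein of growth factor signalling, had the smallest adjusted p. It read 1499 in control 6, 788 with TM, 4458 and 3526 with Rot and AA, and 1275 and 1112 in the rho0 pair, a rise of 2.32 (SE 0.18, adjusted p = 3.98e-06). Its other probe sets gave differences of 2.53, 1.80, 0.80, 0.78 and -0.08. VMP1, an ER protein needed for autophagosome formation, read 142, 74.6, 423 and 274, and 84.6 and 68.5 in rho0 cells (2.10, SE 0.32). The stress ligand MICA went from 144 and 111 to 477 and 510.0 (2.09) and the splicing kinase CLK1 from 167 and 76.9 to 461 and 443 (2.47). CEMIP, a hyaluronan-binding protein, differs: it read 198 in control 6 and 154 and 159 with the inhibitors, while the array with TM alone read 19.1, a difference of 2.70. EGR1, an immediate early factor, read 3239 with Rot and 347 with AA against 68.4 with TM, and lost its call without the Rot array (adjusted p = 0.167). GDF15, a secreted stress signal, read 994, 1059, 4525 and 3515, and 2057 and 3589 in the rho0 pair (1.91, adjusted p = 0.0337), and PPP1R15A (GADD34), which recruits a phosphatase to eIF2alpha, rose by 1.21. Both inhibitor arrays lay above all 8 controls and both TM arrays without inhibitor for 61 of the 102, and for 11.4% of all genes.

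The genes called with an inhibitor were also read in the rho0 pair, as a description, since they were chosen on the inhibitor arrays. Of the 207 genes that fell, 23 were lower by at least 1 in the rho0 pair (11.1%, against 2.10% of all genes), with a median of -0.30. Of the 102 that rose, 3 were higher there by at least 1 (2.94%, against 2.33%). The same inhibitors added to 2-deoxyglucose (2DG), a sugar analogue that blocks glycolysis and glycosylation, were also read. Those arrays are not shared with TM, but they entered the spread of the fit that chose the genes. On them, 80 of the 207 were lower by at least 1 relative to 2DG alone (38.6%, against 12.8% of all genes). OGFRL1 had changes of -3.29 and -3.67 from control with 2DG and Rot or AA, and -0.27 to -0.63 with 2DG alone.

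The genes of the shared rise were then read under 2DG. With 2DG alone, 150 of the 151 genes were higher on average over 3 arrays, 78 of them by at least 1 (51.7%). Over all 10499 genes tested 5478 were higher, 236 of them by at least 1 (2.25%). The medians of the 3 arrays over the 151 genes were 1.04, 0.99 and 1.00, next to 1.07 with TM alone. With 2DG and Rot the median was 0.16, with 2DG and AA 0.18 and in rho0 cells with 2DG 0.13. Over all genes these medians were -0.08, -0.06 and -0.06. The TM arrays with Rot, with AA and in rho0 cells had medians of 1.16, 1.27 and 1.15 over the 151 genes. CRELD2 had changes of 2.22, 2.01 and 2.31 with 2DG, -0.48 and -0.29 with 2DG and Rot or AA, and -0.42 in rho0 cells with 2DG, against at least 2.89 on every TM array. HSPA5 was different, at 1.10 and 1.44 with 2DG and an inhibitor and 0.85 in rho0 cells with 2DG. DNAJB9 also stayed higher, at 1.76 with 2DG and Rot, 0.73 with 2DG and AA and 1.85 in rho0 cells with 2DG.

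**Figure D5:**
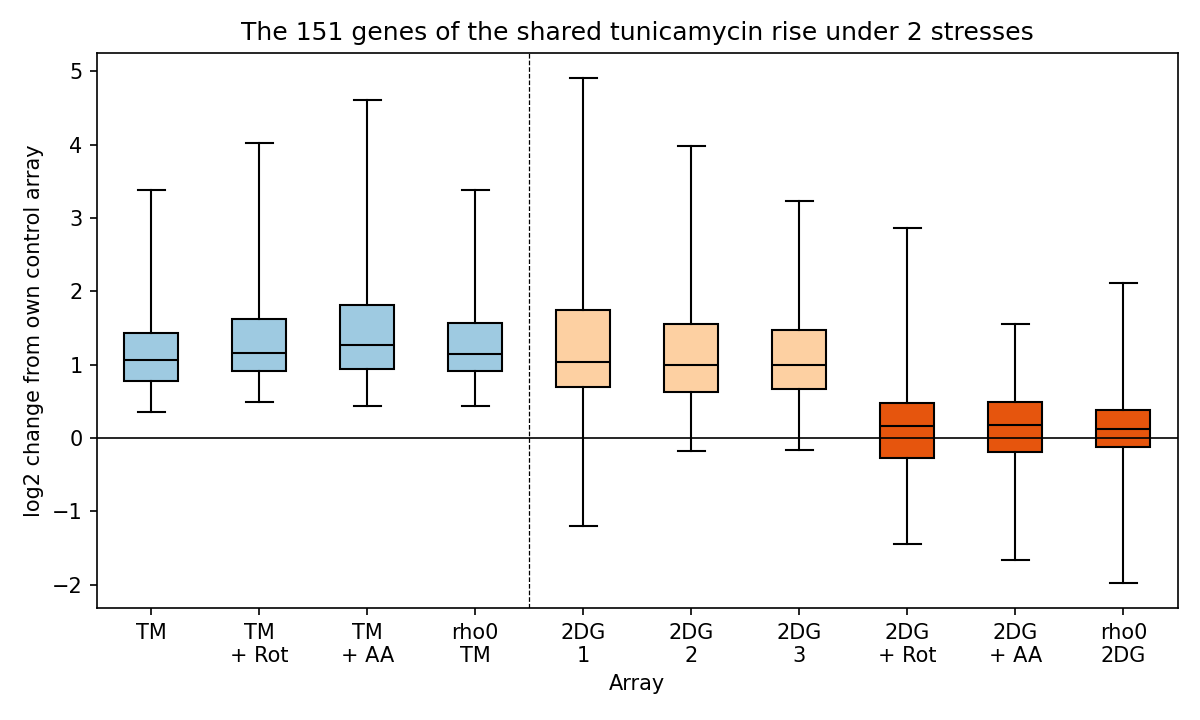
Log2 change from the own control (y axis) of the 151 genes of the shared tunicamycin rise on 10 arrays (x axis). Boxes show quartiles with the median, and whiskers the lowest and highest gene; the genes were chosen on the 4 arrays left of the dashed line. The medians are near 1 with TM in any respiratory state and with 2DG alone, and 0.13 to 0.18 with 2DG when respiration was blocked or mtDNA absent.

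The difference between the inhibitor effects under TM and under 2DG was tested, and called 510 genes higher under TM (4.86%) and 363 lower (3.46%), with a median over all genes of 0.11. With the deposited scaling 1271 were higher and 127 lower around a median of 0.41, and without 2DG replicate 2 the calls dropped from 873 to 74. Of 21 ER chaperones 10 were called higher and none lower (median 0.79), of 6 J-domain proteins 5 and none (1.08), of 18 feedback genes 6 and none (1.38) and of 13 amino acid enzymes 7 and none (1.31). For CRELD2 the difference was 2.45 (adjusted p = 5.26e-05), for HSP90B1 1.66, for ASNS 2.73, for TRIB3 3.21 and for HSPA5 0.28 (adjusted p = 0.359). Among replication genes 17 of 39 were lower under TM and none higher (median -1.13). SDF2L1, with changes of 2.20 and 2.16 under TM with Rot and AA and -0.29 and -0.35 under 2DG with them, had a difference of 1.96. VMP1 went the other way, at -1.97 (adjusted p = 0.0125), with changes of 4.12 and 4.19 with 2DG and an inhibitor against 1.54 and 0.92 under TM.

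Little was called between the 2 stresses themselves. The shared TM response less the 2DG response called 1 gene (0.00952%), DPH5-DT, a noncoding transcript, at 1.86 (adjusted p = 0.0225), with 948 genes at an unadjusted p under 0.05. It read 147 in control 6 and 208, 234 and 379 with TM, and its changes with 2DG were -0.97, -1.21 and -1.07. TXNIP had changes of 3.46, 3.46 and 2.97 with 2DG, and 1.22, -0.86, -0.36 and 0.95 on the TM arrays. The shared TM response less that to 2DG was -2.84 and did not pass (adjusted p = 0.181).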

How the data were processed

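Total RNA of 38 cultures was measured on Affymetrix U133 Plus 2.0 arrays, 29 of them HT-1080 or HT-1080 rho0. The deposited values are MAS 5 signal intensities made by the authors, per the submitters' processing notes. Signals were brought to the same 2% trimmed mean, 118, on every array, and an offset of 5% of it was added before log2. Probe sets reaching 40% of it on at least 2 of the 29 arrays were kept, and of those with 1 gene symbol the brightest stood for its gene, which left 10499 genes. Of 54675 probe sets 232 with a missing value were left out, as were 1801 with several symbols and 11777 with none. Arrays carry no read depth, so their number limits the precision.

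The shared response was fitted with limma 3.58.1 in R 4.3.3 on 6 arrays with the control set as a fixed block (3 residual degrees of freedom). The other differences were fitted over the 29 arrays, with the intensity trend in eBayes and Benjamini-Hochberg adjustment over all genes. The pairing of arrays with controls comes from the sample descriptions. No source says that cultures were started separately, so p-values measure the spread between these arrays, which may be technical. In the tests of an inhibitor and of rho0 cells, TM alone and rho0 TM had 1 array each and gave no spread. The spread came from replicated groups, some pooling different drugs, and TM was assumed to vary like them. The fits were also run on data simulated from the fitted model with independent noise. For the shared response every TM group there got the same added change, so differences between respiratory states were absent. Those runs therefore do not test the spread of the real arrays. Named genes are 17 stress genes, the 12 largest shared rises and falls and the 8 largest inhibitor differences each way. They also include up to 4 called members per list and the 4 widest gaps per array. Of these the text gives the ones that carry a result. Other genes in the text were added after their values were seen. Among them are VEPH1, RFC3, FKBP7, TOR1A, TOR1B, IL13RA2, ND2, VIM, NANS, CALR, MAT2A, UHRF1, GDF15, KLF10, MCM3, MCM6, MANF, CANX and DPH5-DT. The members and the gene lists were chosen with earlier results of these data known. Alternatives were other scalings, offsets, filters, probe set rules and controls, no trend, and leaving out each array.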

Additional observations from a re-analysis of the deposited data

Results flagged for a closer look

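CRELD2 stood apart on the rho0 array, with a log2 change of 3.37 against 2.93, 2.92 and 2.89 on the parental arrays. It was 1 of 39 genes searched for a sample far from the other 3, and chance flags about 1 in 20 groups. The 3 parental changes share control 6, the highest parental control for CRELD2 (424, median 363), so the values are not independent.

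Calls between groups were 309 genes for an inhibitor added to TM, 873 for the inhibitor effect under TM less that under 2DG, and 1 for the shared TM response less the 2DG response. Each comes from a test of the difference itself in limma, and the inhibitor tests rest on 1 array of TM alone.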

How the results depend on the processing

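No named gene changed sign where it was called under the main setting or the alternative. Values not called on either side changed sign 22 times, among them CHAC1 in the shared response (-0.61, and 1.05 with no replicate block) and EGR1 in the inhibitor effect under TM less that under 2DG (-0.44, and 1.16 without TM with AA). The 189 genes of the shared response became 118 with no filter, 58 with no trend, 37 with the 3 parental arrays only, 1365 with 29 arrays, and 3761 with no replicate block, where all 8 controls stood in for the own ones. Leaving out 1 array gave 16 (without control 6) to 749 (without TM alone), with 36 and 37 without the rho0 control or rho0 TM and 63 without TM with Rot. The 309 inhibitor calls became 169 with no filter, 172 with no trend and 94 with 38 arrays, and 107 to 410 without 1 inhibitor array. The difference of rho0 from parental cells gave 1 call with the mean of probe sets, 6 with TM plus inhibitor as the parental reference and 0 with no replicate block. Leaving out a further array was not run there, since none is replicated. The 873 calls between TM and 2DG became 1398 with the deposited scaling, 525 with no filter and 513 with no trend, and 74 (without 2DG replicate 2) to 1491 (without 2DG with Rot). The 1 call of TM less 2DG became 0 with no filter and 0 to 32 without 1 array. Without control 6 the estimate of the shared response came from the rho0 pair alone, and without either rho0 array from the parental arrays alone. Apart from the smaller sets of arrays and the larger number of genes tested, the cause was not tested. Probes near background limit the sizes of SPX, KLHDC7B and TRMT10B.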
